A study of Homo sapiens with 9 samples.

Results

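Large H3K27ac peaks that hold neither RUNX1 nor BRG1 and lie off H3K4me3 were described in DND-41, an established line of human T-cell acute lymphoblastic leukemia. They are called factor-free distal peaks, or members. The members were chosen by width and overlap alone: each is a peak of the H3K27ac list from DMSO-treated cells that was at least 3000 bp and under 10000 bp wide (3 to 10 kb) and shared no base with a RUNX1, BRG1 or H3K4me3 peak (hg19). These widths and overlaps are therefore a description and no finding. By this rule there were 3992 members among 90495 DMSO H3K27ac peaks (4.41%), and they held 18.5 Mb of the 127.2 Mb that the list covered (14.6%). Of the 8153 DMSO peaks of this width, 49.0% were members. The comparison is with 1982 peaks of the same widths that also lay off H3K4me3 but held a factor, called factor-holding distal peaks. Of those, 1154 held RUNX1 alone, 749 held both factors and 79 held BRG1 alone.

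The profiles are CUT&RUN libraries, in which antibody-guided micrococcal nuclease cuts out the DNA around a target for sequencing. The H3K27ac libraries came from cells treated with 100 nM ACBI-1 or with its vehicle, DMSO. The RUNX1, BRG1 and H3K4me3 libraries carried no treatment label. Each target and condition had 1 library, so the differences have no replicate check and carry no p-value. The 5 lists used here hold positions of peaks without any signal, and read depth is unknown. The ACBI list was the shorter, with 52967 peaks over 70.8 Mb against 90495 peaks over 127.2 Mb in DMSO. A library of lower depth also gives fewer and narrower peaks, and depth and treatment cannot be told apart in these 2 lists. Intervals are exact 95% intervals over peaks and cover counting error alone, since neighbouring peaks are not independent.

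As background, H3K27ac is laid down by the acetyltransferases CBP and p300 and marks active promoters and enhancers, while H3K4me3 is found mainly at promoters. Wide H3K27ac peaks away from promoters are commonly read as clusters of active enhancers. RUNX1 is a DNA-binding factor that is needed for T-cell development and is widely bound at enhancers of T-cell leukemias. BRG1, the product of SMARCA4, is an ATPase of the SWI/SNF complexes, which move nucleosomes and keep enhancers open. ACBI-1 directs the degradation of the SWI/SNF ATPases and of PBRM1, a further SWI/SNF subunit. The absence of a factor peak means that the authors' list reported none, which does not show that the factor was absent.

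The members were mostly at the narrow end of their band. Their median width was 4142.5 bp (quartiles 3428 and 5390 bp), 1857 of them (46.5%) were under 4 kb and 400 reached 7 kb or more. The factor-holding distal peaks had a median width of 4612.5 bp (quartiles 3712 and 6165 bp). Wide peaks without a factor were a small part of their kind: 73439 distal DMSO peaks of any width held neither factor, and 5.44% of them were members.

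The members were spread unevenly over the chromosomes, and in a different way from the factor-holding distal peaks. On chromosome 22, 284 of 2796 DMSO peaks (10.2%) were members, and on chromosome 19 it was 291 of 4103 (7.09%). The lowest shares were on chromosomes 6 (2.55%), 13 (2.58%) and X (2.61%), beside 4.41% over all sequences. The density, over a length taken to the end of the last peak, was 5.54 members per Mb on chromosome 22, 4.92 on chromosome 19, 0.504 on chromosome 13 and 0.264 on chromosome X. Factor-holding distal peaks were the least frequent on chromosome 19, where they made up 0.926% of DMSO peaks, and reached 3.33% on chromosome 13. Of the distal peaks of this width on chromosome 19, 88.4% (84.5 to 91.7) were members, and chromosome 22 had 85.8% (81.6 to 89.4). Chromosome 13 had 43.6% (35.0 to 52.5), chromosome 6 had 48.0% (41.6 to 54.4) and chromosome X had 48.2% (37.3 to 59.3). These chromosomes were picked from 23 as the highest and lowest in their share of members, so part of the gap between them follows from that choice.

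**Figure D1:**
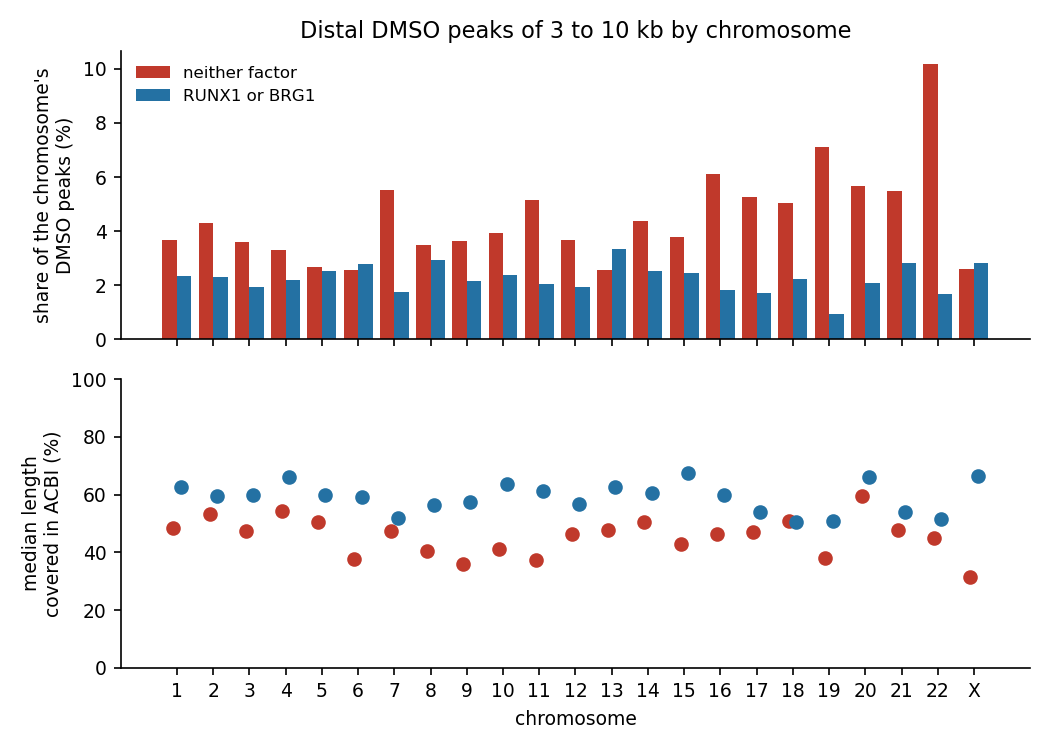
Upper panel: share of each chromosome's DMSO H3K27ac peaks (percent) that are 3 to 10 kb wide, off H3K4me3 and without a factor (red), or with RUNX1 or BRG1 (blue). Lower panel: the median share of the same peaks' length covered by ACBI H3K27ac peaks (percent). Chromosomes 22 (10.2%) and 19 (7.09%) stand highest in red, and the red median is below the blue one on 22 of 23 chromosomes.

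Members had more DMSO H3K27ac peaks around them than factor-holding distal peaks had. A member had a median of 17 other DMSO H3K27ac peaks within 50 kb (quartiles 13 and 21), against 12 around a factor-holding distal peak (quartiles 7 and 18). Joining DMSO peaks at gaps of up to 10 kb gave 24064 groups, of which 1965 contained a member. Of the members, 2814 (70.5%) shared their group with at least 1 other member, and 55 were alone in theirs. A peak that held a factor was in the same group for 3283 members (82.2%), and a peak on H3K4me3 for 3081 (77.2%). The remaining 560 members (14.0%) were in groups with neither a factor nor H3K4me3. A member's group held a median of 21 DMSO peaks, and large groups are more likely to include such peaks. The same shares for other DMSO peaks are not given, so these do not set the members apart. The group with the most members, singled out after its values were seen, was on chromosome 17 (78518060 to 78940318). It ran over 422 kb and held 21 members among 75 DMSO peaks, with 8 factor-holding peaks and 1 on H3K4me3. ACBI peaks covered between 19.0% and 100% of each of these 21 members, with a median of 66.7%.

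The members were near RUNX1 sites but seldom adjacent to them. The nearest RUNX1 peak was a median of 16.7 kb from the edge of a member (15.8 to 17.7; quartiles 7.16 and 37.4 kb). It was under 5 kb away for 639 members (16.0%), under 25 kb for 2510 (62.9%) and at least 100 kb away for 287 (7.19%). The rule kept out overlap alone, yet 27 members had a RUNX1 peak under 1 kb away and none had a BRG1 peak that close, the nearest being at 1124 bp. BRG1 was farther off, with a median of 45.6 kb (43.3 to 47.6). The lists differ in size, with 19893 RUNX1, 12834 H3K4me3 and 7445 BRG1 peaks, and a shorter list tends to give larger distances. From the factor-holding distal peaks, the nearest other BRG1 peak was 45.8 kb away (41.5 to 48.8), so the distance to BRG1 does not set the members apart. The nearest H3K4me3 peak was a median of 27.3 kb away (26.0 to 28.6), and under 5 kb away for 479 members. "Distal" therefore means off H3K4me3 and not always far from it.

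Among distal peaks without a factor, the distance to RUNX1 fell with width up to the members, but not beyond them. The median distance to RUNX1 was 25.8 kb for peaks under 500 bp (n = 29809), 24.6 kb for 500 bp to 1 kb (n = 21490), 21.5 kb for 1 to 2 kb (n = 13597), 19.8 kb for 2 to 3 kb (n = 4320) and 16.7 kb for the members. A wider peak reaches farther to each side, so the distance was also taken between midpoints. It was then 19.3 kb (18.5 to 20.2) for the members and 26.2 kb (25.7 to 26.8) for peaks under 500 bp. RUNX1 was 16.7 kb from the members, while the nearest other RUNX1 peak was 13.2 kb (12.5 to 14.1) from the factor-holding distal peaks. H3K4me3 showed the opposite order and was 27.3 kb from the members and 55.5 kb (50.5 to 59.0) from the factor-holding distal peaks. The order for RUNX1 did not hold for each kind of factor-holding peak: the nearest other RUNX1 peak was 12.4 kb (11.1 to 13.3) away with RUNX1 alone and 14.3 kb (12.8 to 16.5) with both factors, but 30.1 kb (20.1 to 42.1) with BRG1 alone. The median number of other RUNX1 peaks within 50 kb was 2 in both classes. These distances run between edges, and the factor-holding peaks were the wider class.

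**Figure D2:**
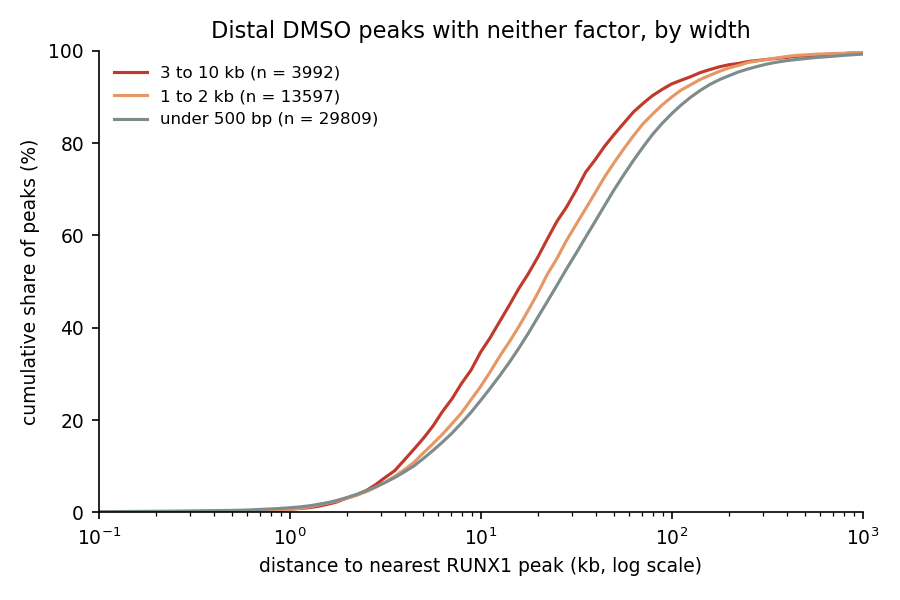
Cumulative share (percent) of distal DMSO H3K27ac peaks with neither factor against the distance to the nearest RUNX1 peak (kb, log scale), for 3 width ranges. The curve for 3 to 10 kb lies left of those for narrower peaks around the medians and crosses that for 1 to 2 kb at the far end, with medians of 16.7 kb for the members and 25.8 kb for peaks under 500 bp.

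The RUNX1 peaks next to the members were mostly acetylated themselves. The 3992 members had 2528 distinct nearest RUNX1 peaks, of which 93.1% lay in DMSO H3K27ac, 47.7% on H3K4me3 and 32.4% on BRG1. Over all RUNX1 peaks the shares were 83.8%, 43.0% and 29.8%. Of the 3 lists, H3K4me3 gave the nearest peak for 1982 members, RUNX1 for 1904 and BRG1, the shortest list, for 106.

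The members nearest to RUNX1 included a pair of neighbours on chromosome 9. The first (20218781 to 20222240) was 74 bp from a RUNX1 peak and the second (20222885 to 20226736) was 395 bp from one. ACBI peaks covered 21.6% of the first and 74.7% of the second. On chromosome 18 (12736320 to 12742857), 104 bp from RUNX1, an ACBI peak of 8115 bp covered the whole member. On chromosome 3 (15305758 to 15309077), 325 bp from RUNX1, the cover was 24.0%. On chromosome 1 (94543226 to 94546276), 590 bp from RUNX1, no ACBI peak overlapped the member. Close RUNX1 binding thus went with anything between no cover and full cover in ACBI.

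At the opposite end, the 5 members farthest from RUNX1 were all on the sex chromosomes. Neighbours on chromosome X (27791290 to 27795832 and 27768325 to 27771424) were 2434 and 2411 kb from it, with 39.1% and 23.7% of their length covered in ACBI. A member on chromosome Y (265686 to 269002) was 2441 kb away, and a pair at the start of chromosome X (1583064 to 1589226, and 1599134 to 1604241) were 2029 and 2014 kb away. The last 3 lie near the chromosome ends. In the first 2.5 Mb of chromosome X, the ACBI and DMSO H3K27ac lists held 16 and 42 peaks, while the RUNX1, BRG1 and H3K4me3 lists held 0 each. Those 3 lists also held 0 peaks in the first 2.5 Mb of chromosome Y. For the 3 members in each of these stretches, the lack of a factor therefore says nothing about the single site. Why those lists were empty there was not tested, nor was it tested whether members elsewhere lie in similar stretches.

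The comparison of ACBI with DMSO asked how much of each member was still called as H3K27ac after the degrader. ACBI peaks covered 8.97 Mb of the members' 18.5 Mb (48.3%), beside 43.6% of the length of all other DMSO peaks. A median of 45.9% (44.8 to 47.1) of a member's length was covered, with quartiles of 24.5% and 68.4%. The factor-holding distal peaks kept more, with a median of 59.3% (57.7 to 61.1) and quartiles of 39.0% and 79.1%. By factor, the medians were 56.8% (54.6 to 58.8) with RUNX1 alone, 57.9% (51.1 to 66.5) with BRG1 alone and 65.0% (61.4 to 67.8) with both. Peaks of the same width on H3K4me3 had 67.4% (64.4 to 70.2) covered when they held neither factor (n = 399) and 69.2% (68.3 to 70.3) when they held one (n = 1780). The members thus had the lowest median of these classes.

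**Figure D3:**
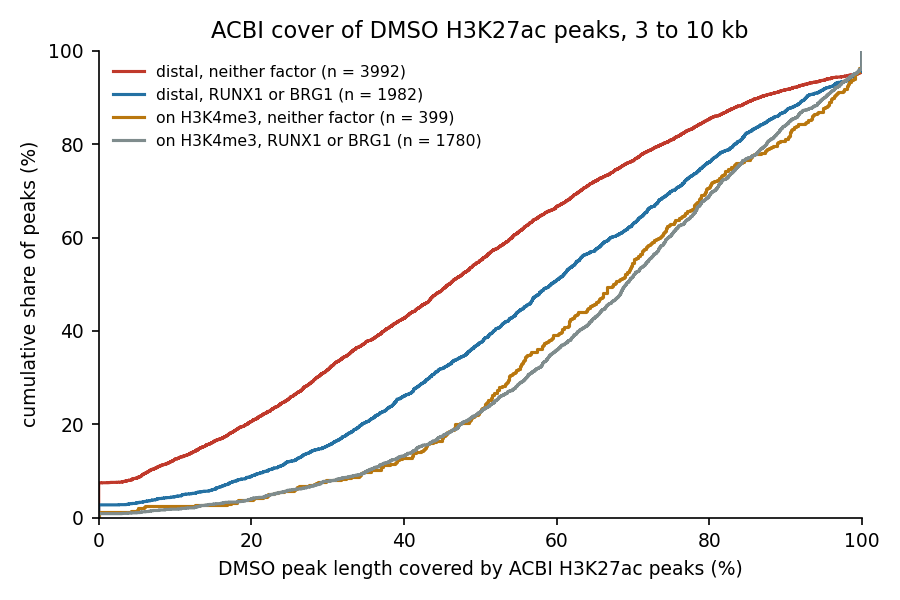
Cumulative share of DMSO H3K27ac peaks of 3 to 10 kb (percent) against the share of their length covered by ACBI H3K27ac peaks (percent), by class. The curve of the distal peaks with neither factor is the leftmost up to about full cover, with a median of 45.9% against 59.3% for distal peaks with a factor, and starts at the 7.49% of members with no ACBI peak.

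Few members disappeared from the ACBI list altogether. No ACBI peak overlapped 299 of the 3992 members (7.49%, 6.69 to 8.35) or 55 of the 1982 factor-holding distal peaks (2.77%, 2.10 to 3.60). The background was 59.1% over all DMSO peaks and 4.60% over those of 3 to 10 kb. Less than 50% of the length was covered in 2198 members (55.1%, 53.5 to 56.6) and in 743 factor-holding distal peaks (37.5%, 35.4 to 39.7), with a background of 75.6% over all DMSO peaks and 42.1% at this width. At least 95% was covered in 253 members (6.34%, 5.60 to 7.14) and in 165 factor-holding distal peaks (8.32%, 7.15 to 9.63), against 6.37% over all and 7.96% at this width. The members' shares lost and under 50% were thus above those of all peaks of their width, a group to which they contribute 49.0%.

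The difference in cover was also seen at like widths. Within width bins of 1000 bp weighted to the members' widths, the mean cover was 46.6% in members and 56.8% in factor-holding distal peaks. The difference was -10.2 percentage points (-11.7 to -8.70, a normal interval over peaks). The members were below peaks with RUNX1 alone by -7.81 points (-9.66 to -5.97) and below peaks with both factors by -13.7 points (-15.9 to -11.6). Compared in the same way with peaks on H3K4me3 that held neither factor, the difference was -19.2 points (-21.6 to -16.8). For the share lost, members exceeded factor-holding distal peaks by 4.08 points (2.88 to 5.28). That excess was larger among narrower peaks: it was 5.57 points at 3 to 5 kb and 0.807 points (-0.139 to 1.75) at 5 to 10 kb. Peak height was not used here and may differ between peaks of equal width.

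Cover rose with width in both classes. In members it was a median of 40.7% (38.3 to 43.2) at 3 to 4 kb, 49.0% (44.9 to 51.9) at 5 to 6 kb and 62.9% (55.8 to 76.3) at 9 to 10 kb. In factor-holding distal peaks of these widths it was 54.8% (51.5 to 57.7), 61.9% (56.9 to 66.5) and 72.9% (65.3 to 78.1). The members were lower in each of the 7 width bins, and their interval overlapped that of the factor-holding peaks in the bins from 6 to 8 kb and at 9 to 10 kb. The share of members lost was 12.1% (10.7 to 13.7) at 3 to 4 kb, 6.07% (4.60 to 7.85) at 4 to 5 kb and 2.67% (1.47 to 4.43) at 5 to 6 kb.

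**Figure D4:**
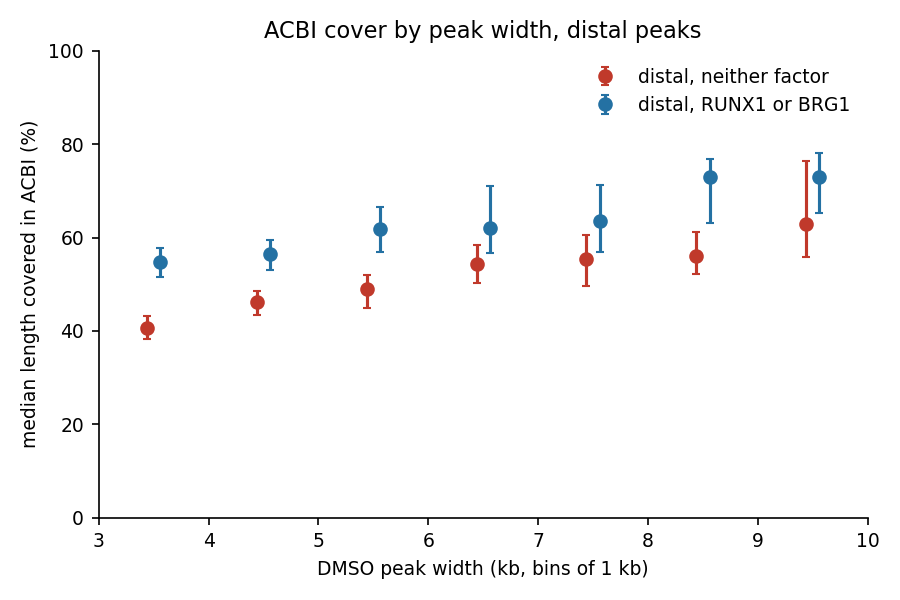
Median share of DMSO peak length covered in ACBI (percent) by peak width (kb), for distal peaks with neither factor (red) and with RUNX1 or BRG1 (blue); bars are exact 95% intervals of the median over peaks. Members range from 40.7% at 3 to 4 kb to 62.9% at 9 to 10 kb and lie below the factor-holding peaks in each bin.

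The classes also differed in where along the peak the ACBI cover lay. Each peak was divided into 20 equal stretches. In members, the mean cover was 53.5% in the 2 central stretches and 32.3% in the 2 outermost, a difference of 21.2 percentage points. In factor-holding distal peaks it was 75.7% in the centre and 26.2% at the ends, a difference of 49.5 points. The centre of the members was thus covered less, while their ends were covered slightly more. Among peaks of 3 to 4 kb alone the differences between centre and ends were 19.97 points in members and 50.4 points in factor-holding distal peaks, and at 5 to 10 kb they were 22.2 and 47.3 points. Leaving out peaks with no ACBI peak gave 22.9 and 50.9 points. On H3K4me3, peaks without a factor had a difference of 42.6 points and those with one 47.6 points. Cover thus rose from the ends to the centre in all 4 classes, and least in the members.

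**Figure D5:**
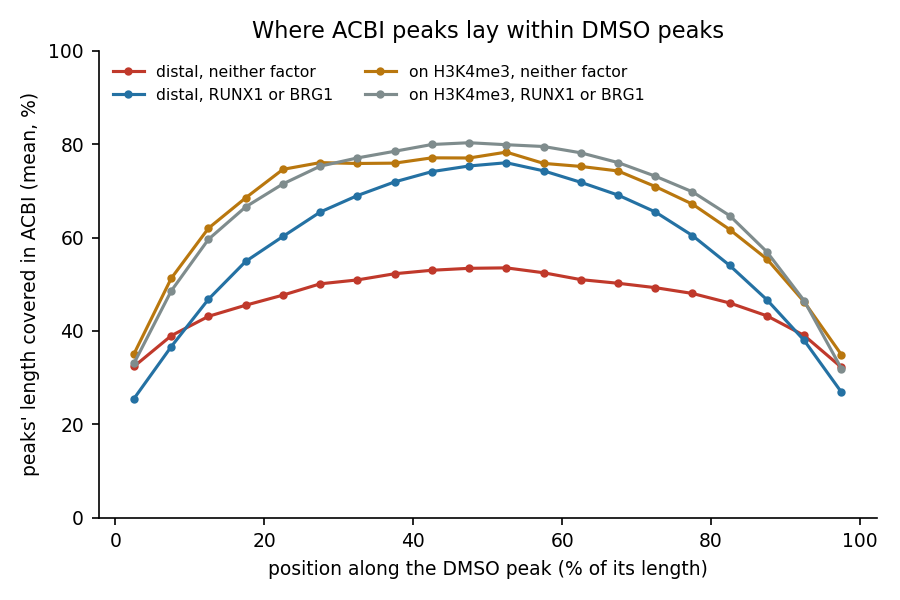
Mean share of length covered by ACBI H3K27ac peaks (percent) in 20 equal stretches along DMSO H3K27ac peaks of 3 to 10 kb, from one end (0%) to the other (100%), by class. The curve of distal peaks with neither factor rises the least, from 32.3% at the ends to 53.5% in the centre, while that of distal peaks with a factor runs from 26.2% to 75.7%.

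What remained was more often in pieces in the members. Several ACBI peaks overlapped 1828 members (45.8%) and 647 factor-holding distal peaks (32.6%), with at most 5 per peak in either class. The rest of the peaks of this width lay on H3K4me3. Several overlapped 123 of the 399 without a factor there (30.8%) and 549 of the 1780 with one (30.8%). Exactly 1 ACBI peak overlapped 1865 members, and its median width was 2013 bp in ACBI against 3770 bp for the DMSO peak. In 1505 of these pairs (80.7%) the peak was narrower in ACBI. That share was higher in factor-holding distal peaks with 1 ACBI peak, at 1091 of 1280 (85.2%). Their median widths were 2802.5 bp in ACBI and 4314 bp in DMSO. The ACBI peaks ran past both ends of the DMSO peak in 451 of the 3693 members with any cover (12.2%) and in 129 of 1927 factor-holding distal peaks (6.69%). The shares that were narrower or passed at both ends were not taken over all peaks of this width.

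The rule was then applied to the ACBI list in place of the DMSO list. It gave 1772 ACBI peaks of 3 to 10 kb off H3K4me3 with neither factor, against 3992 in DMSO (44.4%), and 1065 with a factor, against 1982 (53.7%). Over all peaks of 3 to 10 kb, the ACBI list held 4013 and the DMSO list 8153, a share that lies between these. Of the 1772, 924 (52.1%) overlapped a member and 2 had no DMSO peak at all. DMSO peaks covered a median of 89.4% (87.9 to 91.4) of their length. All but those 2 large factor-free peaks of the ACBI list thus overlapped H3K27ac called in DMSO.

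The difference between the classes was also seen within neighbourhoods and within chromosomes. For 1632 members a factor-holding distal peak of the same width band lay within 100 kb, and the nearest was taken (744 distinct peaks, so pairs share them). Cover in ACBI was a median of 45.0% in the members and 65.3% in these neighbours, and the member was the lower in 1097 pairs (67.2%, 64.9 to 69.5). The median width was 4145.5 bp in these members and 5176 bp in the neighbours. In the 467 pairs whose widths were within 20% of each other, the median difference was -12.1 points (-19.3 to -7.86) and the member was the lower in 300 (64.2%, 59.7 to 68.6). By chromosome, the width-matched mean cover of members was below that of factor-holding distal peaks on 22 of the 23 autosomes and X. The difference was widest on X, at -25.8 points with 41 members and 44 factor-holding peaks. The exception was chromosome 18, at 5.47 points with 83 members and 37 factor-holding peaks.

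Among the members, cover in ACBI rose little and not steadily with the distance to RUNX1, and its highest median was at the largest distances. The median was 45.0% (42.3 to 47.7) with RUNX1 at 1 to 5 kb, 42.1% (38.2 to 45.1) at 5 to 10 kb, 47.6% (45.1 to 50.5) at 10 to 25 kb and 51.4% (46.4 to 57.0) at 100 kb or more. The intervals at 5 to 10 kb and at 100 kb or more do not overlap. These are the lowest and highest medians beyond 1 kb, so part of that gap follows from the choice. The share of members lost was 14.8% (4.19 to 33.7; n = 27) with RUNX1 under 1 kb away, 8.82% (6.70 to 11.4) at 1 to 5 kb, 5.02% (3.17 to 7.51) at 50 to 100 kb and 7.67% (4.87 to 11.4) at 100 kb or more. Over all 3992 members, Spearman's rho of cover was 0.06 against the distance to RUNX1, 0.05 against BRG1 and 0.04 against H3K4me3, beside 0.18 against width. These are descriptions across peaks of 2 shared libraries. Members in groups with a factor-holding peak had a median cover of 46.3% (45.1 to 47.7), and those in groups without one 43.5% (40.7 to 47.5).

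Cover was more alike in members that lay close together. For consecutive members under 5 kb apart (709 pairs) Spearman's rho of their cover was 0.34, at 20 to 100 kb it was 0.25 (984 pairs) and at 500 kb or more it was 0.06 (837 pairs). The median absolute difference was 22.1 points (20.4 to 24.4) in the closest pairs and 27.5 points (25.4 to 28.9) in the most distant. Chromosomes differed too, from a median cover of 31.6% on X (n = 41) and 35.9% on chromosome 9 (n = 115) to 59.5% on chromosome 20 (n = 160).

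The 10 widest members measured 9856 to 9988 bp, and ACBI peaks covered between 0% and 95.6% of them. The widest, on chromosome 4 (71813082 to 71823069), had 20.7% covered by 4 ACBI peaks, the largest of 1143 bp, and lay 13.4 kb from RUNX1. The second, on chromosome 2 (47226932 to 47236908), had 95.6% covered by a single ACBI peak of 9537 bp and lay 53.6 kb from RUNX1. Next to it in width, a member on chromosome 17 (37062166 to 37072121) had 64.2% covered and lay 6.72 kb from RUNX1.

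RUNX1 was also under 7 kb away from 4 others of the 10. They were on chromosome 1 (203657544 to 203667463; 55.8% covered), chromosome 7 (607905 to 617769; 28.5%) and chromosome 11 (32448882 to 32458739 with no ACBI peak, and 67070657 to 67080512 with 42.8%). The last was also near the other targets, at 3671 bp from RUNX1, 4571 bp from BRG1 and 3648 bp from H3K4me3. On chromosome 20 (33147683 to 33157596), 107 kb from both RUNX1 and BRG1, 88.6% was covered. The members on chromosome 12 (133210581 to 133220504) and chromosome 2 (99127718 to 99137629) had 39.9% and 42.9% covered. Among these 10, the 2 members with the most cover were also the 2 farthest from RUNX1. That order was not general: a fully covered member on chromosome 12 (105095277 to 105104835) lay 4.49 kb from RUNX1.

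Of the 299 members with no ACBI peak, most were narrow, with a median of 3440 bp against 4233 bp for the 3693 members with one. An ACBI peak lay under 1 kb away from 57 of them (19.1%), and for 41 (13.7%) the nearest was at least 10 kb away. The nearest RUNX1 peak was a median of 13.9 kb from the lost members and 16.9 kb from the others. The widest lost member, on chromosome 11 (32448882 to 32458739), had RUNX1 at 4667 bp and BRG1 at 6096 bp. The fourth widest, on chromosome 20 (45894358 to 45900569), was 230 kb from both factors, and an ACBI peak lay 34 bp from its edge. The others among the 5 widest were on chromosome 3 (14951517 to 14958676), chromosome 16 (665874 to 672409) and chromosome 22 (35815004 to 35821096), with RUNX1 at 23.6, 14.1 and 18.9 kb. Members were thus lost both close to RUNX1 and far from it.

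Full cover was seen in 181 of the 3992 members and in 85 of the 1982 factor-holding distal peaks. On H3K4me3 it was seen in 13 of 399 peaks without a factor and in 69 of 1780 with one. As a share of their class, the members were thus slightly the highest of these classes at full cover. At 95% cover or more they were the lowest, with 6.34% against 8.32% of factor-holding distal peaks. On H3K4me3 that share was 12.3% without a factor and 10.2% with one. Of the 5 widest members with at least 95% covered, the widest was the member on chromosome 2 described above. The other 4 lay wholly inside a wider ACBI peak. On chromosome 2 (240286126 to 240295088), a member of 8963 bp was inside an ACBI peak of 42097 bp. On chromosome 14 (35701721 to 35710924), a member of 9204 bp was inside one of 15338 bp. On chromosome 2 (113936212 to 113945219), a member of 9008 bp was inside one of 15056 bp, with H3K4me3 at 2499 bp and RUNX1 at 3005 bp. On chromosome 12 (105095277 to 105104835), a member of 9559 bp was inside one of 12969 bp. For comparison, the 3 widest distal peaks with both factors had 88.9% covered on chromosome 10 (90142917 to 90152906), 28.7% on chromosome 6 (13758778 to 13768767) and 79.5% on chromosome 7 (92435588 to 92445543).

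At the edges of the width band, median cover was similar just inside and just outside. Members of 3.0 to 3.1 kb (n = 251) had a median cover of 32.6%, and distal peaks without a factor of 2.9 to 3.0 kb (n = 268) had 34.6%, while 15.9% and 20.1% of these peaks were lost. The narrowest member, on chromosome 16 (67096146 to 67099145), had 27.3% covered, and the widest peak below the band, on chromosome 1 (43906365 to 43909363) had 17.4%. At the upper edge, members of 9 to 10 kb (n = 82) had a median of 62.9%, and peaks of 10 to 11 kb (n = 58) had 66.3%. The first peak past that edge, of 10003 bp on chromosome 16 (85501082 to 85511084), had 88.7% covered. At the edge set by RUNX1 the numbers were small and the values differed more. The 27 members with RUNX1 under 1 kb away had a median of 37.3%, and 3 distal peaks without BRG1 that shared at most 100 bp with RUNX1 had 0%, 15.5% and 17.2%.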

How the data were processed

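The authors deposited 5 peak lists, each with 4 columns (chromosome, start, end and name), and no score or read count. Per the submitters' processing notes, positions are in hg19, and MACS2 and SEACR were among the tools. Both H3K27ac lists hold broad peaks at q below 0.01, per the file headers. How reads were aligned, pooled or thresholded for the other lists is not given in the sources used here. Control libraries (4, IgG or input) were not analysed here.

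Overlaps (at least 1 bp), distances between peak edges and covered lengths were computed with scipy 1.17.1, pandas 2.3.3 and numpy 2.4.6 (Python 3.11.15), checked against bedtools with 0 differences over 90495 peaks, and plotted with matplotlib 3.10.9. Shares carry Clopper-Pearson intervals and medians exact binomial ones. Width-matched differences used bins of 1000 bp, with normal intervals over peaks. That calculation was tested on simulated data.

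Named regions are the 10 widest members, the 5 widest with no ACBI peak, the 5 widest covered over at least 95%, the 5 nearest to and farthest from RUNX1, the peaks at the edges of the width band and the 3 widest distal peaks with both factors. The members, lists and tests were chosen with earlier results of these data known. Without an annotation of hg19, no gene was assigned, the gene lists drawn up were not used and no sequence is printed.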

Additional observations from a re-analysis of the deposited data

How the results depend on the processing

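Of 51 values under other settings, 26 stayed within the interval of the reported value (for the number of members, within 1.5 times). The other 25 moved out of it, and 0 changed sign. Only the width-matched differences could change sign, since counts, distances, medians and shares cannot be negative. Keeping out peaks with a factor or H3K4me3 within 1 kb, the autosomes and X only, and width bins of 500 bp moved none. The first of these leaves the factor-holding distal peaks unchanged by construction. Taking the autosomes and X only drops 6 members, so little could move. At 3 to 5 kb the median cover was 42.7% in members and 55.6% in factor-holding distal peaks, the share lost 10.2% and 4.23%, and its width-matched difference 5.57 points. At 5 to 10 kb these were 53.5%, 65.1%, 1.61%, 0.728% and 0.807 points, with 1246 members. Merging DMSO peaks within 1 kb put the median distance to RUNX1 at 19.7 kb, the median cover at 31.1% and 47.7%, the share lost at 13.8% and 5.13%, and the matched differences at 8.07 points (lost) and -13.1 points (cover). Widening ACBI peaks by 1 kb put the median cover at 96.7% in members and 99.1% in factor-holding distal peaks. The members lost were then 6.06% and the matched difference in cover was -6.15 points. Such widening adds 1 kb to each side of every ACBI peak, so much of the higher cover follows from the setting itself. Counting a peak as lost under 50% cover gave 55.1% and 37.5%, and a matched difference of 15.7 points. The cause was not tested, beyond what each setting changes by construction. No paired analysis was possible because each condition had 1 library. Depth is unknown, and it limits every comparison of the ACBI list with the DMSO list.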
